A study of Mus musculus with 12 samples.

Results

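The vascular endothelial growth factor (VEGF) family is described here as 9 genes among the 23183 gene symbols measured in 12 mouse brain libraries. They were chosen by symbol: 4 ligands (Vegfa, Vegfb, Vegfc and Pgf) and 5 receptors (Flt1, Kdr, Flt4, Nrp1 and Nrp2). All 9 were found in every library. Their levels in irradiated and control mice were part of that choice, so the differences between irradiated and control mice are given as a description, with no test. Differences between the brain regions were not part of it and were tested.

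The study asked how the brain's transcriptome stands in the chronic phase of gut injury caused by X-rays to the abdomen. Hippocampus and prefrontal cortex were taken from 3 irradiated and 3 control mice, so that each mouse gave 1 library per region. The irradiated mice are male C57BL/6 mice given abdominal irradiation, with 13 Gy in the names of their libraries. The control mice are male C57BL/6 mice that were not irradiated. The sources used here give neither the time after irradiation nor the age of the mice. All 12 libraries carry 1 batch label. Within a group each library is from another mouse, and with 3 per group the tests measure the spread between these mice.

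VEGF ligands are secreted by many cells of the brain, astrocytes and neurons among them, and act mainly on the endothelial cells that line blood vessels. Kdr is the receptor that carries most of the Vegfa signal for growth and permeability, while Flt1 binds Vegfa tightly, signals weakly and also takes up Vegfb and Pgf. The neuropilins Nrp1 and Nrp2 are co-receptors for VEGF and, on neurons, receptors for semaphorins that guide axons.

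Levels are in FPKM (fragments scaled by transcript length in kilobases and by the library's mapped total), a unit inferred from the values. The values of a library summed to between 381417 and 435534 FPKM, and between 12640 and 12967 genes reached 1 FPKM. The depth was estimated from the steps between low values at 15.6 to 19.0 M (mega) fragments. At that depth Vegfa rests on an estimated 798 to 1478 fragments per library if its longest annotated transcript is counted. With the median transcript length the estimate is 202 to 374. Flt4 rests on only 22 to 72 by the longest transcript and 17 to 56 by the median. Markers of the choroid plexus, the tissue that makes cerebrospinal fluid, set 1 hippocampal library apart. They summed to 3185, 70.3 and 4724 FPKM in irradiated hippocampi 1, 2 and 3, against 5944, 4769 and 3797 FPKM in the controls. In cortex they summed to 68.1 FPKM in control 3, against 4.74 to 7.06 FPKM in the other cortical libraries.

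The promoters of Vegfa, Flt1 and Kdr are shown because these 3 genes had every irradiated library above every control library in both regions. The 250 bases before the transcription start are from RefSeq (GRCm38.p6, the assembly of mm10), on the minus strand in each case, at chr17:46032378-46032627 for Vegfa, chr5:147726012-147726261 for Flt1 and chr5:75978456-75978705 for Kdr. Capitals mark the core of a hypoxia-inducible factor (HIF) site (ACGTG or GCGTG), the core of an ETS factor site (GGAAG) and a cAMP response element (TGACGTCA), each searched on both strands, with no overlap between the marked matches.
Vegfa: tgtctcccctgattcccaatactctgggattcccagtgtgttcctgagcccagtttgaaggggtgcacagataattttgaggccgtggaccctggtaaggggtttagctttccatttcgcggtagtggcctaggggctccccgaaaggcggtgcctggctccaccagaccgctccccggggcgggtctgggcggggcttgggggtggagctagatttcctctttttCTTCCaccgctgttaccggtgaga
Flt1: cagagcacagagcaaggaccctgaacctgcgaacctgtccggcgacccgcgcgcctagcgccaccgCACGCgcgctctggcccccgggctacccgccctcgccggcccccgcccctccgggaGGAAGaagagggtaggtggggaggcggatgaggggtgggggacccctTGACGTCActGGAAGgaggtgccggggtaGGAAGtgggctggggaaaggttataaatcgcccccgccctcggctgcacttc
Kdr: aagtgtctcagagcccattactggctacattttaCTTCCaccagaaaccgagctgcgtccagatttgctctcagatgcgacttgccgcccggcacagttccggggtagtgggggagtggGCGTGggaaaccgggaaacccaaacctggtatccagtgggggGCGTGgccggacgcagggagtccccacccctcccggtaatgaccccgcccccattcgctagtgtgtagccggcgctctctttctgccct

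In these windows Vegfa holds 1 ETS core and no HIF core, Kdr 1 ETS core and 2 HIF cores, and Flt1 3 ETS cores, 1 HIF core and 1 cAMP response element. Of 32851 mouse promoters of the same length, 64.1% hold the ETS core, 38.6% the HIF core and 1.55% the cAMP response element. The ETS and HIF cores are thus common in promoters, and the cAMP response element of Flt1 is rare. RefSeq lists a pair of starts for Vegfa, of which the outer one was used, so a match outside the window was not looked for.

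Vegfa, the main growth factor for blood vessels (chromosome 17, 46016993 to 46032369, minus strand, mm10), had every irradiated library above every control library, also across the regions. It had 19.9, 23.3 and 20.9 FPKM in irradiated hippocampi 1, 2 and 3, against 12.9, 14.4 and 14.2 FPKM in the controls. In prefrontal cortex it had 21.9, 24.0 and 21.8 FPKM in irradiated mice, against 14.8, 15.6 and 16.9 FPKM in control mice. All 6 irradiated libraries lay above all 6 control libraries, and the nearest values of the 2 treatments were 19.9 and 16.9 FPKM. The mean was 21.4 ± 1.74 FPKM in irradiated and 13.9 ± 0.82 FPKM in control hippocampus (SD, n = 3 each), a ratio of 1.54, and 22.6 ± 1.23 against 15.8 ± 1.05 FPKM in prefrontal cortex, a ratio of 1.43. On the log2(FPKM + 1) scale the difference was 0.59 ± 0.07 in hippocampus and 0.49 ± 0.08 in prefrontal cortex (± SE). The hippocampal difference exceeded the cortical one by 0.10 ± 0.11, which is within its error. Irradiated hippocampus 2, the hippocampal library poorest in choroid plexus markers, had the highest hippocampal level of Vegfa, and without it the difference was 0.53.

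**Figure D1:**
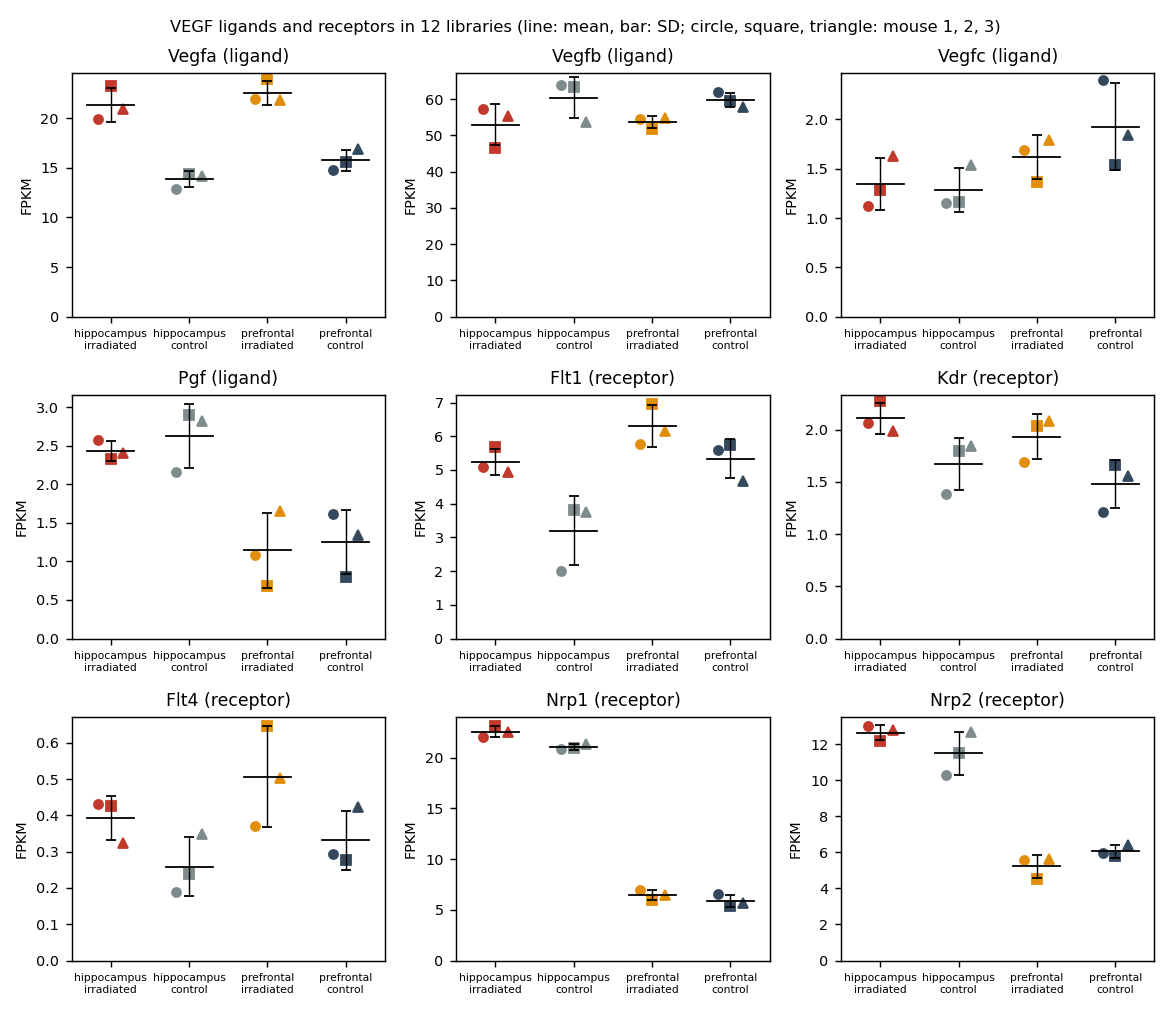
Level in FPKM (y axis, from 0) of each of the 9 genes in irradiated and control hippocampus and irradiated and control prefrontal cortex (x axis). Points are libraries, shaped by mouse number, with a line at the mean and a bar for the SD (n = 3). Vegfa lies at 19.9 FPKM or more in irradiated libraries and at 16.9 FPKM or less in controls, while Nrp1 and Nrp2 are higher in hippocampus than in prefrontal cortex in every library.

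Vegfb, a ligand of Flt1, was the most abundant member in every group. It had 57.3, 46.5 and 55.3 FPKM in irradiated hippocampus, against 64.0, 63.5 and 53.8 FPKM in controls, and the groups overlapped. In prefrontal cortex it had 54.6, 51.7 and 54.8 FPKM in irradiated mice and 61.9, 59.6 and 57.8 FPKM in controls. Here every irradiated library lay below every control library. The difference was -0.19 ± 0.10 in hippocampus (-0.10 without irradiated hippocampus 2) and -0.15 ± 0.07 in prefrontal cortex. Vegfb thus lay on the opposite side of its controls from Vegfa in cortex. Vegfc, which drives lymphatic vessels, had 1.12, 1.29 and 1.63 FPKM in irradiated hippocampus against 1.15, 1.17 and 1.54 FPKM in controls, and 1.69, 1.36 and 1.79 FPKM in irradiated prefrontal cortex against 2.40, 1.53 and 1.84 FPKM in controls. Pgf, placental growth factor, had 2.57, 2.32 and 2.40 FPKM in irradiated hippocampus against 2.15, 2.90 and 2.82 FPKM in controls. In prefrontal cortex Pgf had 1.08, 0.687 and 1.66 FPKM in irradiated mice against 1.62, 0.792 and 1.34 FPKM in controls. Both genes overlapped between treatments in both regions, with differences between -0.15 ± 0.13 and 0.04 ± 0.12. Vegfd, a further ligand listed under its older symbol Figf and not a member, had 1.93, 1.94 and 1.83 FPKM in irradiated cortex, all below the 2.09, 2.85 and 2.33 FPKM of the controls, and overlapped in hippocampus.

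The sum of the 4 ligands stayed between 72.4 and 82.0 FPKM in all 12 libraries, and its make-up differed. Vegfa made up 24.6, 31.7 and 26.1% of the ligand sum in irradiated hippocampus, against 16.1, 17.6 and 19.6% in controls. In prefrontal cortex its share was 27.7, 30.9 and 27.2% in irradiated mice, against 18.4, 20.1 and 21.7% in controls. The lowest share in an irradiated library was thus above the highest in a control, in each region. These shares rest on the levels of Vegfa and Vegfb given above and add no separate evidence.

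**Figure D2:**
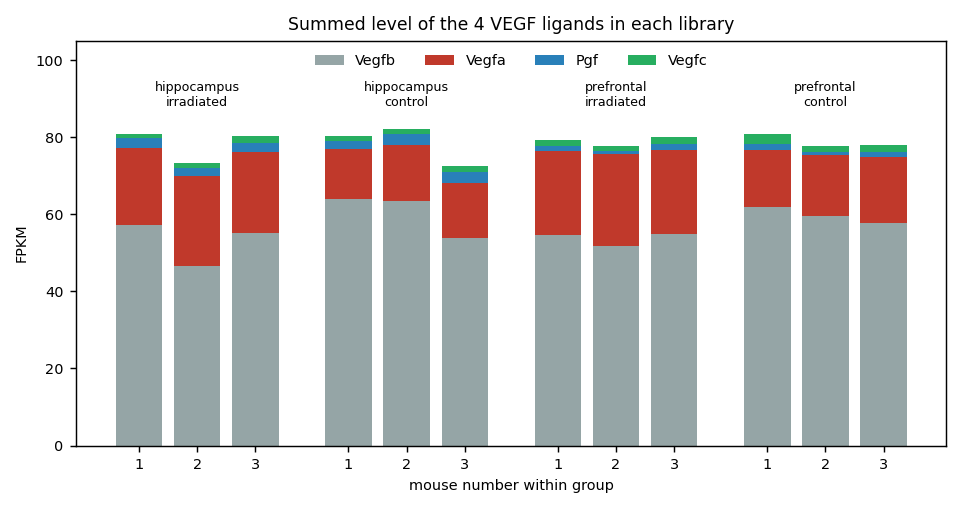
Stacked bars give the FPKM of Vegfa, Vegfb, Vegfc and Pgf (y axis, from 0) in each of the 12 libraries (x axis). The bars reach between 72.4 and 82.0 FPKM, and the Vegfa segment is larger in each irradiated library than in any control of the same region.

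Flt1 (VEGF receptor 1, chromosome 5, 147561604 to 147726011, minus strand) had 5.08, 5.68 and 4.94 FPKM in irradiated hippocampus, against 2.01, 3.81 and 3.76 FPKM in controls. The difference of 0.60 ± 0.18 leans on control hippocampus 1, and without that library it was 0.38. In prefrontal cortex Flt1 had 5.77, 6.97 and 6.16 FPKM in irradiated mice and 5.59, 5.73 and 4.67 FPKM in controls, a difference of 0.21 ± 0.10 with the nearest libraries at 5.77 and 5.73 FPKM. Irradiated libraries lay above controls in both regions, by a margin in cortex that is small beside the spread. The hippocampal difference exceeded the cortical one by 0.40 ± 0.22.

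Kdr (VEGF receptor 2, chromosome 5, 75932827 to 75978458, minus strand) was lower in level than Flt1 in all groups. It had 2.07, 2.28 and 1.99 FPKM in irradiated hippocampus, against 1.39, 1.80 and 1.84 FPKM in controls, and 1.69, 2.03 and 2.08 FPKM in irradiated cortex, against 1.22, 1.66 and 1.56 FPKM in controls. The groups did not overlap in either region, with differences of 0.22 ± 0.10 and 0.25 ± 0.11. Without control hippocampus 1 the hippocampal difference of Kdr was 0.14, and without control cortex 1 the cortical one was 0.17. The nearest cortical libraries of the treatments were at 1.69 and 1.66 FPKM, a margin that is small beside the spread. Flt4 (VEGF receptor 3), the receptor of Vegfc, averaged 0.394 ± 0.0611 FPKM in irradiated against 0.258 ± 0.0819 FPKM in control hippocampus and 0.507 ± 0.138 against 0.331 ± 0.0802 FPKM in cortex. Its groups overlapped in both regions, it fell below the 1 FPKM minimum of the fits, and at 22 to 72 estimated fragments its ratio of 1.52 in hippocampus is loosely measured.

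The neuropilins differed by 0.18 or less in size between the treatments. Nrp1 had 22.1, 23.1 and 22.5 FPKM in irradiated hippocampus, against 20.8, 21.0 and 21.4 FPKM in controls, a difference of 0.10 ± 0.05 with no overlap. In cortex its groups overlapped (0.11 ± 0.09). Nrp2 differed by 0.13 ± 0.08 in hippocampus with overlapping groups, and by 0.06 without control hippocampus 1. In prefrontal cortex it had 5.57, 4.50 and 5.62 FPKM in irradiated mice, all below the 5.93, 5.78 and 6.43 FPKM of the controls (-0.18 ± 0.10, or -0.09 without irradiated cortex 2). Over all libraries the hippocampal difference of Nrp2 exceeded the cortical one by 0.31 ± 0.13.

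Counted over the family, 1 of 4 ligands and 3 of 5 receptors had every irradiated hippocampal library above every control, and none had every one below. Over all 12947 genes tested in hippocampus the shares were 7.41% above and 8.16% below. In prefrontal cortex 1 ligand and 2 receptors lay above and 1 ligand and 1 receptor below, against 6.25% and 7.44% of 12729 genes. The choice of members used this contrast, so nothing is read from these shares. In the tests over all genes 0 genes passed in hippocampus (0%, limma with Benjamini-Hochberg adjustment), with 1361 at an unadjusted p under 0.05. In prefrontal cortex 1 gene passed (0.00786%), the small nucleolar RNA Snora81, with 920 at an unadjusted p under 0.05. No member is among the genes that passed.

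**Figure D3:**
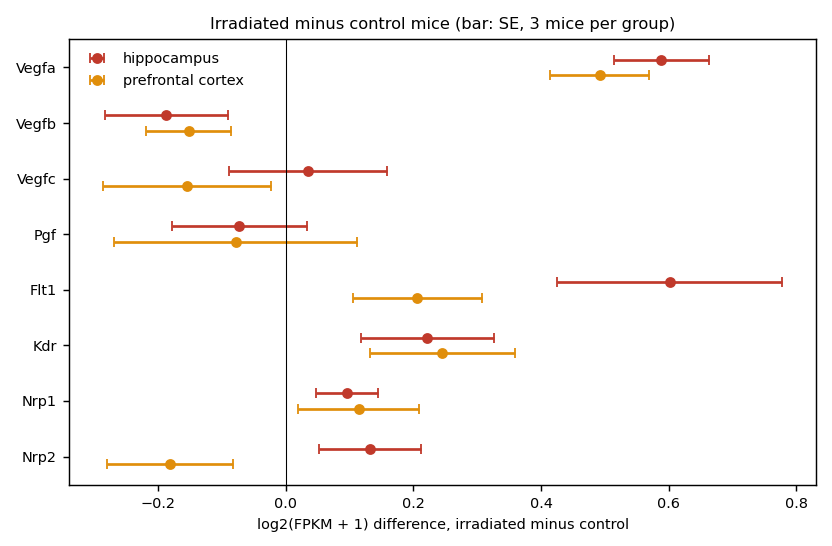
Irradiated minus control difference in log2(FPKM + 1) (x axis) with its SE for the 8 members in the fits (y axis), in hippocampus and in prefrontal cortex. Vegfa stands at 0.59 and 0.49, Flt1 at 0.60 with a wide error in hippocampus, and Vegfb and Pgf in both regions and Vegfc and Nrp2 in cortex lie below 0.

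Flt1 and Kdr are made mainly by endothelial cells, so 20 further endothelial markers were set beside them. In bulk tissue a larger number of such cells and more RNA per cell cannot be told apart. The markers, none at 0 in any library, summed to 149, 155 and 161 FPKM in irradiated hippocampus, against 102, 119 and 122 FPKM in controls. Of the 18 tested, 15 had a positive difference, 11 with no overlap, with a median of 0.41 against -0.01 for all genes, and 0 passed the test. Over all genes tested, 7.41% lay above without overlap. In cortex the markers summed to 158, 156 and 172 FPKM in irradiated mice, against 129, 145 and 144 FPKM in controls. There 16 of 18 were positive (median 0.10 against 0.00), and 5 had no overlap, against 6.25% of all genes above. Ly6c1, a surface protein of brain endothelium, averaged 25.9 ± 4.78 against 11.8 ± 3.06 FPKM in hippocampus, while Egfl7, a secreted endothelial protein, averaged 16.6 ± 1.08 against 17.2 ± 0.444 FPKM. The markers as a group moved with Vegfa, Flt1 and Kdr, though not every marker did.

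As a percentage of the marker sum, Flt1 was 3.41, 3.65 and 3.06% in irradiated hippocampus, against 1.98, 3.20 and 3.08% in controls, and Kdr was 1.39, 1.47 and 1.23% against 1.36, 1.505 and 1.51%. Both overlapped, as they did in cortex. Vegfa was equal to 13.3, 15.0 and 12.96% of the marker sum in irradiated hippocampus, against 12.7, 12.1 and 11.6% in controls, and to 13.9, 15.4 and 12.6% in irradiated cortex, against 11.5, 10.8 and 11.7% in controls. For Vegfa the groups still did not overlap on this scale, but by a smaller margin than in FPKM. In hippocampus the nearest values were 12.96 and 12.7%, and this separation depends on which markers are summed. The sum includes Slco1c1, at 19.7, 12.2 and 23.55 FPKM in irradiated hippocampus against 23.7, 20.8 and 18.6 FPKM in controls. Slco1c1 was lowest in irradiated hippocampus 2, the hippocampal library poorest in choroid plexus markers. The part of endothelial content in these differences was not tested.

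**Figure D4:**
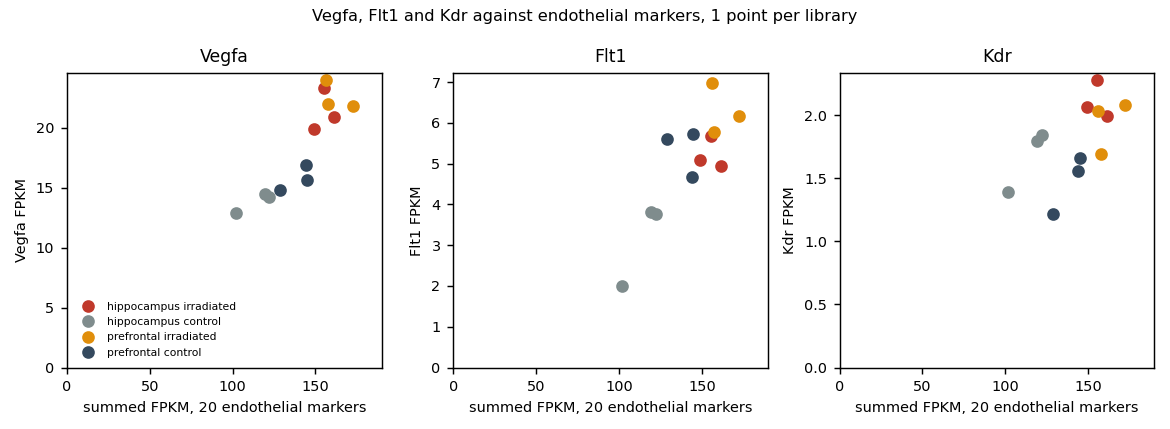
Level in FPKM of Vegfa, Flt1 and Kdr (y axes, from 0) against the summed FPKM of 20 endothelial markers (x axis), 1 point per library, colored by group. Irradiated libraries lie to the upper right of the controls of their region, at 149 to 161 against 102 to 122 FPKM of markers in hippocampus.

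Markers of pericytes and smooth muscle, the cells that wrap vessels, were positive for 10 of 10 genes in hippocampus (median 0.32, 0 passed). Of these, 5 had no overlap, against 7.41% above over all genes tested. Their sums were 73.8 to 93.2 FPKM in irradiated mice against 48.5 to 66.5 FPKM in controls. In cortex the sums overlapped, at 66.2 to 77.0 FPKM in irradiated mice and 69.1 to 71.9 FPKM in controls. Markers of meningeal fibroblasts were positive for 9 of 11 genes in hippocampus (median 0.57) and negative for 10 of 10 in cortex (median -0.50). In cortex 7 had every irradiated library below the controls, against 7.44% of all genes tested. All 13 choroid plexus markers were negative in hippocampus (median -1.14), but the groups overlapped for each. Without irradiated hippocampus 2, left out after the data were seen, 11 of 13 were negative, with a median of -0.09. Without the same library the endothelial markers were positive for 18 of 18 genes, with a median of 0.34. Again 11 had no overlap, which is easier to reach with a library fewer. For all genes tested the share above was 7.41% with that library and 10.4% without it. Astrocyte markers, from a cell type that secretes Vegfa, were positive for 4 of 12 genes in hippocampus and 3 of 12 in cortex (medians -0.04 and -0.10). Markers of resting microglia summed to 190 to 203 FPKM in irradiated hippocampus, against 211 to 212 FPKM in controls. In cortex their sums overlapped, at 181 to 200 FPKM in irradiated mice and 180 to 212 FPKM in controls. None of these lists had a gene that passed, and their part in the members' differences was not tested.

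Long transcripts tended to read higher in some libraries. The slope of each library's deviation on transcript length was 0.034, 0.0747 and -0.0105 log2 units per doubling of length in irradiated hippocampus, against -0.0663, -0.0408 and 0.00894 in controls. In cortex it was -8.6e-05, 0.0764 and 0.0104 in irradiated mice, all above the -0.0413, -0.00411 and -0.0413 of the controls. In cortex the length trend thus ran with the treatment. With this trend removed, an alternative added after the data were seen, Vegfa still differed by 0.60 ± 0.07 in hippocampus and 0.50 ± 0.07 in cortex. Vegfb differed by -0.10 ± 0.07 and -0.08 ± 0.06 in place of -0.19 and -0.15. Its longest transcript has 1281 bases against 3451 for Vegfa (the median transcripts have 1158 and 874). Flt1 in hippocampus differed by 0.54 ± 0.16, and Nrp2 in cortex by -0.22 ± 0.11. Over all alternatives, this one included, Kdr (longest transcript 5924 bases) differed by 0.14 to 0.33 in hippocampus and 0.17 to 0.37 in cortex. Flt1 in cortex differed by 0.13 to 0.27 over the same alternatives.

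Vegfa is a known target of HIF, the factor that stabilizes when oxygen is low. Of 14 other genes induced by HIF, 10 were positive in hippocampus (3 above and 1 below with no overlap, median 0.09) and 13 in cortex (7 above with no overlap, median 0.14), and 0 passed in either. Over all genes tested, 47.0% were positive in hippocampus, with 7.41% above and 8.16% below, and 51.2% in cortex, with 6.25% above and 7.44% below. Pgk1, a glycolytic enzyme and the most abundant of the 14, overlapped in both regions, at 254 ± 11.4 FPKM in irradiated against 264 ± 13.2 FPKM in control hippocampus and 259 ± 19.8 against 243 ± 11.3 FPKM in cortex. Ldha, lactate dehydrogenase, averaged 198 ± 4.37 FPKM in irradiated cortex against 180 ± 4.94 FPKM in control cortex, and Bnip3, a mitophagy protein, 79.6 ± 0.517 against 72.2 ± 3.04 FPKM, without overlap. In hippocampus Ldha and Bnip3 overlapped too. The genes that sense oxygen or form HIF were positive for 4 of 8 in hippocampus and 7 of 8 in cortex (medians 0.00 and 0.03). Downstream of the receptors, 18 of 40 genes of VEGF signalling inside the cell were positive in hippocampus and 27 of 40 in cortex, with medians of -0.01 and 0.05, and 0 passed. Genes that VEGF induces in endothelium were positive for 6 of 11 in hippocampus, with no gene free of overlap, and for 7 of 9 in cortex, where 3 lay above and 1 below without overlap. The 2 most abundant, Egr3 and Rcan1, overlapped in both regions, and in cortex Egr3 averaged 43.5 ± 1.23 against 42.1 ± 3.37 FPKM and Rcan1 31.9 ± 1.28 against 29.99 ± 0.552 FPKM in irradiated and control mice. Apln, a peptide of sprouting vessels, averaged 12.5 ± 1.53 FPKM in irradiated against 9.31 ± 0.622 FPKM in control cortex, without overlap. In hippocampus its groups overlapped, at 9.85 ± 1.51 and 7.31 ± 1.17 FPKM.

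Across the 12 libraries, with each region's mean removed, Vegfa varied with Kdr (r = 0.85), Flt4 (r = 0.79) and Flt1 (r = 0.78) and against Vegfb (r = -0.81). The points share mice and libraries and fall into treatment groups, so these values describe the pattern above and have no test. Among 11813 genes the most like Vegfa by the same measure were Adgrl4 (r = 0.96), an adhesion receptor of endothelium, Ttyh3 (0.94), Agfg1 (0.94), Acer2 (0.93), a ceramidase, and Ly6a (0.93), a surface marker of endothelium. Adgrl4 had 3.13, 3.898 and 3.10 FPKM in irradiated hippocampus, against 1.21, 1.71 and 1.92 FPKM in controls. Acer2 had 2.51, 3.43 and 3.02 FPKM in irradiated hippocampus, against 0.881, 1.01 and 0.940 FPKM in controls. These genes were picked for following Vegfa, so that their levels part by treatment follows from the choice. For Flt1 the nearest genes were Slc22a23 (0.95), the endothelial cadherin Cdh5 (0.94) and Adgrf5 (0.93). For Kdr they were Lonrf2, Mon2 and Prepl (0.98, 0.98 and 0.96), for Vegfb Exosc4, Vps28 and Aurkaip1 (0.96, 0.96 and 0.95), and for Nrp1 Dpf1 (0.93). The longest transcripts of Exosc4, Vps28 and Aurkaip1 are 1796, 2148 and 1159 bases, against a median of 3527 bases among the genes compared, and those of Lonrf2, Mon2 and Prepl are 6932, 9301 and 3255 bases.

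The regions differed most in the neuropilins. Nrp1 (chromosome 8, 128358604 to 128503363, plus strand) had 22.1, 23.1 and 22.5 FPKM in hippocampus of irradiated mice, against 6.96, 5.92 and 6.44 FPKM in their prefrontal cortex, a ratio of 3.503 and a difference of 1.67 ± 0.07 (adjusted p = 3.9e-06, limma). In control mice the ratio was 3.58 and the difference 1.68 ± 0.08 (adjusted p = 9.98e-07). Nrp2 (chromosome 1, 62703285 to 62818695, plus strand) had 12.99, 12.2 and 12.8 FPKM in hippocampus of irradiated mice against 5.57, 4.50 and 5.62 FPKM in prefrontal cortex, and 10.3, 11.5 and 12.7 against 5.93, 5.78 and 6.43 FPKM in control mice. The differences were 1.13 ± 0.09 (adjusted p = 6.48e-05) in irradiated and 0.82 ± 0.09 (adjusted p = 0.00014) in control mice. Nrp1 exceeded Nrp2 in each of the 6 hippocampal libraries, by a factor of 1.68 to 2.02, and the ratio was 0.887 to 1.32 in cortex.

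Pgf was also higher in hippocampus. It averaged 2.43 ± 0.128 FPKM there in irradiated mice, against 1.14 ± 0.489 FPKM in prefrontal cortex (adjusted p = 0.0134), and 2.62 ± 0.409 against 1.25 ± 0.420 FPKM in control mice (adjusted p = 0.00772). Without irradiated hippocampus 1 the test in irradiated mice gave an adjusted p of 0.0513. Flt1 was lower in hippocampus of control mice, at 3.20 ± 1.03 FPKM against 5.33 ± 0.580 FPKM in cortex. The difference was -0.62 ± 0.17 (adjusted p = 0.0248, limma), and -0.40 without control hippocampus 1. In irradiated mice it was -0.23 ± 0.09 (adjusted p = 0.09, or 0.0412 with the mouse as a block, over a range of 0.0412 to 0.3002 among the alternatives). In control mice the call of Flt1 was lost without control cortex 1 (adjusted p = 0.0664) or 2 (0.0699), and with no filter on low values (0.0599). Vegfa, Vegfb, Vegfc and Kdr did not pass in either treatment, and the difference of Vegfa was -0.08 ± 0.07 in irradiated and -0.17 ± 0.08 in control mice.

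**Figure D5:**
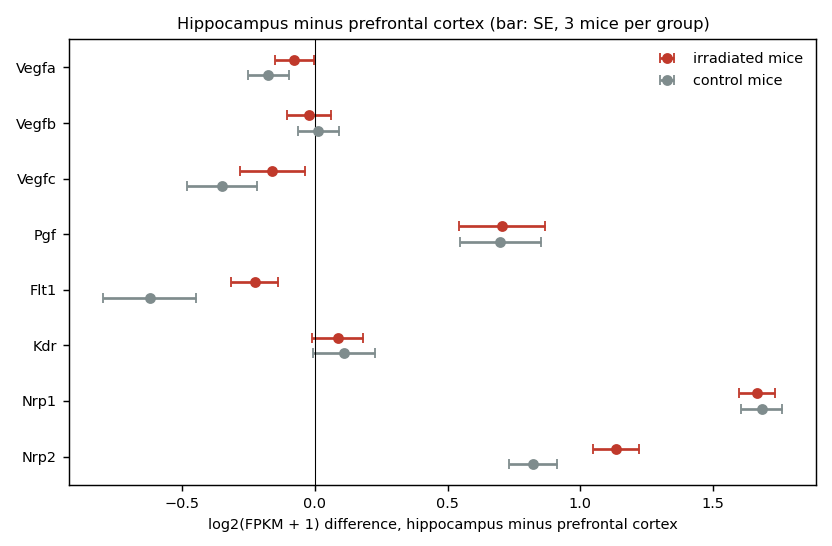
Hippocampus minus prefrontal cortex difference in log2(FPKM + 1) (x axis) with its SE for the 8 members in the fits (y axis), in irradiated and in control mice. Nrp1 stands near 1.67 and Nrp2 at 1.13 and 0.82, Pgf near 0.70. Flt1 lies at -0.23 in irradiated and -0.62 in control mice, Vegfc at -0.16 and -0.35, Vegfa at -0.08 and -0.17, and Vegfb and Kdr within 0.11 of 0.

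Over the family, 3 members were higher in hippocampus in irradiated mice, against 13.9% of 12878 genes (29.2% in either direction, with 15.3% lower), and 3 higher and 1 lower in control mice, against 15.7% and 14.6% of 12923 genes (30.3% in either direction). Without overlap between the regions, 3 members lay above and 1 below in irradiated mice, against 21.4% and 23.4% of genes, and 3 above and 2 below in control mice, against 23.7% and 22% of genes. The semaphorins and plexins set beside the neuropilins were split between the regions in both treatments, with 4 of 11 tested genes higher and 3 lower in hippocampus. Sema3e, a ligand that repels growing vessels and axons, averaged 10.2 ± 0.727 FPKM in hippocampus against 4.43 ± 0.337 FPKM in prefrontal cortex of irradiated mice (adjusted p = 6.59e-05). Plxnd1, its receptor, was lower in hippocampus, at 7.76 ± 1.55 against 21.3 ± 2.49 FPKM (adjusted p = 0.000286), and so was Sema3a, the classic ligand of Nrp1, at 1.05 ± 0.311 against 4.21 ± 0.258 FPKM (adjusted p = 0.000168). In control mice these 3 genes differed in the same directions. Endothelial markers of control mice were lower in hippocampus for 9 of 18 genes and higher for 2 (median -0.47), beside the lower Flt1, and in irradiated mice lower for 0 and higher for 1 (median -0.12). Whether the regional difference itself differed between treatments was not tested.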

How the data were processed

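Total RNA from Trizol went into libraries of the NEBNext Ultra II Directional kit, per the labels' protocols. The submitters' processing notes name TopHat and the mm10 build. The sources used here do not give the counting tool, its annotation or its use of the strand. The authors deposited 1 value per gene and library with no unit named. These deposited values were taken as FPKM, since they are not whole numbers and, summed after multiplication by transcript length in kilobases, come to 0.567 to 0.591 M (mega) with median and 1.20 to 1.25 M with longest transcript lengths. RPKM could not be told from it. FPKM are relative to a library's total, and counts were not used here.

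Comparisons were fitted on their own 6 libraries with limma-trend (limma 3.58.1, R 4.3.3) on log2(FPKM + 1), keeping genes that averaged 1 FPKM or more, with Benjamini-Hochberg adjustment over all genes tested and a threshold of 0.05, two-sided. The log2(FPKM + 1) scale understates changes of low genes. All differences and SEs come from these fits. Of 9 members 8 passed the filter, and Flt4 did not. The scripts were tested on simulated data. Gene positions and lengths are from GENCODE M21 (mm10), promoters from RefSeq (GRCm38.p6), where all 9 members matched.

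The members, gene lists and tests were chosen with earlier results of these data known. Named genes are all members and Vegfd, the 3 most abundant genes of a list with up to 4 that passed, and the genes most like each member by correlation. The text gives a part of these.

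Libraries of the same number within a treatment come from the same mouse, per the titles, so the mouse was added as a block as an alternative for the region comparisons. The correlation of their deviations from the group mean was 0.174, 0.256 and 0.300 in irradiated mice and 0.290, -0.006 and 0.054 in control mice. Control hippocampus 2 and 3 each correlated best with the cortex of the other, so the pairing of control mice rests on the titles. Irradiated and control mice of the same number are different animals, although their cortices correlated by 0.141, 0.120 and 0.117, each best with its own number. The alternatives were a pseudocount of 0.1, no filter, equal library totals, median ratio scaling, 1 fit over all 12 libraries, the block, leaving out each library and, added after the data were seen, removal of a transcript length trend.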

Additional observations from a re-analysis of the deposited data

How the results depend on the processing

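Over the alternatives, 204 of 208 results of irradiated against control mice moved by less than the spread, whatever their direction. Between the regions, 181 of 192 results kept their direction and side of the threshold. Among the former, the small differences of Vegfc in hippocampus and Pgf in cortex kept their sign in 10 and 11 of 13 alternatives. The difference of Vegfa ranged over 0.53 to 0.67 in hippocampus and 0.45 to 0.56 in cortex. The number of genes passing in hippocampus was 0, and 4 with equal library totals (Acer2, Crabp2, Ctgf and Lrg1), which raised the median of all genes by 0.077. It was 1 in a fit over all 12 libraries and 0 to 1 with a library left out. The gene in the 12-library fit was Vegfa, whose choice used this contrast, so its passing is not read as a test. In cortex it was 1, 2 with no filter on low values, 0 in the 12-library fit and 1 to 4 with a library left out. With the replicate block, pairing the regions by mouse, 4629 genes differed between regions in irradiated mice, against 3758 without it, and 4326 against 3922 in control mice. The pairing changed the call of Flt1 in irradiated mice and no other member's. For irradiated against control mice, whose numbers are shared by different animals, the block gave 0 and 1 calls. The small regional difference of Vegfb, -0.02 in irradiated and 0.01 in control mice, changed sign with equal totals in control mice (-0.014) and ranged over -0.080 to 0.067 in irradiated and -0.031 to 0.092 in control mice with a library left out. Vegfc in control mice passed without control cortex 2 (adjusted p = 0.0457, range 0.0457 to 0.202). The cause of these changes was not tested. With 3 mice per group and an estimated 15.6 to 19.0 M fragments, Vegfc, Pgf and Flt4 rest on the fewest fragments of the members.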
